A study of Homo sapiens with 16 samples.

Results

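Homologous recombination repairs double-strand breaks by copying an intact sister chromatid, and the Fanconi pathway recruits the same machinery to DNA crosslinks that block replication. Cells use both mainly in S and G2 phase, and many of their genes are transcribed as cells prepare to replicate, which places them among the targets of the E2F transcription factors and of the repressive RB and DREAM complexes. The 9 genes described here take different positions in that work. BRCA1 acts at the start of the process with its partner BARD1, PALB2 links BRCA1 to BRCA2, BRCA2 acts in the assembly of the protein filament on single-stranded DNA, and RAD54L is the motor protein that helps this filament invade the template. FANCA belongs to the Fanconi core complex, a ubiquitin ligase whose substrates FANCD2 and FANCI form a clamp on DNA. BLM is the helicase that unwinds joint molecules with TOP3A, RMI1 and RMI2, and ERCC1 is the non-catalytic partner of the nuclease ERCC4 (XPF), which cuts at crosslinks and in nucleotide excision repair.

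The 9 genes were chosen by their symbols, BRCA1, BRCA2, RAD54L, FANCD2, FANCI, FANCA, BLM, PALB2 and ERCC1, and all 9 were present among the 35993 gene symbols of the count table and among the 21297 genes that passed the filter on low counts. RNA-seq libraries were made from 4 established lines of human bladder cancer labelled as wild type, TCCSUP, RT112, J82 and 253J. The cells received CM-1758, a histone deacetylase inhibitor, for 48 h at the IC50 determined in that cell line, or 0.01% DMSO as vehicle control. Each cell line and treatment had 2 libraries, 16 in all in 8 groups, and each library held between 22506431 and 32537104 counts. Because the dose was set separately for each cell line, and because TCCSUP was grown in EMEM and the other 3 in DMEM, cell line, dose and medium cannot be told apart when lines are compared.

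The epithelial keratin genes KRT8 and KRT18 were detected in every library, with KRT8 between 39.2 CPM in treated TCCSUP and 3580 CPM in treated J82 libraries. CPM is the count of a gene relative to the library size after scaling by TMM. EPCAM was at 212 to 248 CPM in RT112. It was at 0.398 to 1.82 CPM in 253J, 0.874 to 2.47 in J82 and 5.63 to 11 in TCCSUP. Of the mesenchymal markers, FN1 was at 879 CPM or more in every library. VIM was at 1290 to 1690 CPM in 253J, 131 to 314 in J82 and at most 14.8 in RT112 and TCCSUP. CDH2 in control was at 514 to 636 CPM outside RT112 and at 4.54 to 4.84 CPM in it. ZEB1 was at 25.6 to 60.6 CPM outside RT112 and at most 5.4 CPM in it. The urothelial differentiation gene UPK1B was abundant in RT112, at 1300 to 1520 CPM in control, and was at 0 counts in all 4 libraries of 253J, as were UPK2, UPK3A and KRT5. Other urothelial genes changed in 253J. KRT20 went from 0 CPM in control to 7.15 to 11.7 CPM in treated libraries. TP63 went from 0.0724 to 0.153 CPM up to 6.89 to 12 CPM, and UPK1A from 0 to 0.238 to 0.877 CPM. FOXA1 went from 5.55 to 6.19 CPM down to 1.59 to 1.94 CPM, while GATA3 and PPARG overlapped. Of the 5 leukocyte markers, CD68 was the most abundant in every library and the 5 together reached at most 68.5 CPM, while CD3E stayed at 7 counts or fewer. PTPRC was at 8.63 to 10.5 CPM in control and 0.973 to 1.26 CPM in treated TCCSUP libraries. In the other lines it stayed at 28 counts or fewer. Fibroblast markers, 5 genes led by LUM and COL1A1, summed to 2760 and 2820 CPM in the TCCSUP control libraries and to 468 and 422 CPM after CM-1758. In RT112 the sum went from 1370 and 1340 to 839 and 910 CPM and was nearly all LUM, while the other 4 genes, among them COL1A1 at 4.45 to 5.49 CPM in control and 21.3 to 23.7 CPM in treated cells, were higher after CM-1758. The sum went from 111 and 103 up to 198 and 164 CPM in J82 and stayed at or under 30.5 CPM in 253J. Epithelial markers summed to 4330 and 3180 CPM in control and 2340 and 1850 CPM in treated 253J libraries, and to 1230 and 1360 and then 467 and 369 CPM in TCCSUP. KRT18 made up most of these differences, and KRT19 was higher in the treated libraries of both lines (948 to 1180 CPM against 841 to 913 CPM in 253J, and 169 to 194 CPM against 112 to 119 CPM in TCCSUP). In J82 they summed to 5940 and 8070 CPM in control and 6930 and 7860 CPM in treated libraries, which overlap, and in RT112 to 6250 and 6400 and then 6250 and 5390 CPM. Single genes moved in both directions within these sums. KRT7 went from 1430 to 1990 CPM down to 321 to 649 CPM in J82. In RT112 it went from 1770 to 1930 CPM down to 921 to 1050 CPM. KRT18 went from 1560 to 2130 CPM up to 2750 to 3060 CPM in J82. CDH1 went from 3.38 to 4.25 CPM up to 25.1 to 27.2 CPM in J82, and from 461 to 473 CPM up to 872 to 875 CPM in RT112. Endothelial markers reached at most 13.6 CPM. The part of these markers in the results on the repair genes was not tested.

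Promoter windows of the repair genes were compared first, since most of these genes moved together. RefSeq (GRCh38.p14) listed windows for 8 of the 9, all except FANCI, and 12 windows in all because BRCA1, RAD54L and ERCC1 had more than 1 listed start. The letters GCGGGAA, the core of the site that E2F proteins recognise, were searched on both strands from 250 bases before to 50 bases after each start, and were found in 6.55% of the 35116 windows of that length in the table. Of the 12 windows 5 held it, and BRCA1, RAD54L, FANCD2 and BLM each had a match. The 2 windows of RAD54L overlap and hold the same match, which is counted in both. No match lay in the windows of BRCA2, FANCA, PALB2 and ERCC1. The 4 genes with a match are shown with ERCC1, the gene whose direction differed between cell lines, each from 150 bases before the most downstream listed start to 20 bases after it, 5′ to 3′ on the strand of the gene, with the matches in capitals (TTCCCGC is the same word read on the other strand).
BRCA1 (chr17:43125345-43125514, minus strand): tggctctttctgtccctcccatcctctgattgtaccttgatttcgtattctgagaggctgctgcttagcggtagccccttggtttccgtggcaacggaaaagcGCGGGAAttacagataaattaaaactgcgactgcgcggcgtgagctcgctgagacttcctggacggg
RAD54L (chr1:46247613-46247782, plus strand): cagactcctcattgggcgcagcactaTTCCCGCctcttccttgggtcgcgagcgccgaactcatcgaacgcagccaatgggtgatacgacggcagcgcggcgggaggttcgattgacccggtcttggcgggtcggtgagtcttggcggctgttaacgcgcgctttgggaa
FANCD2 (chr3:10026287-10026456, plus strand): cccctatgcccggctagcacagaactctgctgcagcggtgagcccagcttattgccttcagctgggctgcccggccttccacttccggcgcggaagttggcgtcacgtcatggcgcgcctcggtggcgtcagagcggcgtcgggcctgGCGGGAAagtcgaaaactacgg
BLM (chr15:90717196-90717365, plus strand): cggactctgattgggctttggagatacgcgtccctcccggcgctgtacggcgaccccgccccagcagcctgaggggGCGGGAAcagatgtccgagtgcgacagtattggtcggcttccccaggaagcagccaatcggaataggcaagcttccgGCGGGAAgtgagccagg
ERCC1 (chr19:45423509-45423678, minus strand): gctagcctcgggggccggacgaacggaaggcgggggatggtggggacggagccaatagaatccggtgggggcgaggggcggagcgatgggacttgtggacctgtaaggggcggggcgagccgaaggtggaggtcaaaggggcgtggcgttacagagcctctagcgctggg
The match began at position -47 from the start in BRCA1, at -124 in RAD54L, at -2 in FANCD2, and at -74 and 4 in BLM, whose stretch held 2 copies. The shorter word CCAAT, part of the site of the factor NF-Y whose matches did not overlap with those of GCGGGAA in these genes, was present in 7 of the 12 windows (6 of the 8 genes) and in 34.6% of all windows. RAD54L again counts in both of its windows for the same sites. TTTGAA, a word of the cell cycle homology region that DREAM binds, was present in 1 of the 12 windows, that of an upstream start of ERCC1, against 15.2% of all windows. A match of letters is a description of the sequence and not a measured binding site. As described below, genes with and without a match of GCGGGAA fell after CM-1758. BRCA2, FANCA and PALB2, without a match, fell in 253J, J82 and RT112. BRCA1, RAD54L and FANCD2, with a match, fell in all 4 lines, and BLM, with 2 copies, in 253J and J82. The part of these words in the changes was not tested.

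After CM-1758 the recombination and Fanconi genes were lower in most comparisons, and 253J had the largest reduction of each gene except PALB2 and ERCC1. BRCA1, BRCA2, RAD54L, FANCD2 and FANCI fell in all 4 cell lines. FANCA and PALB2 fell in 253J, J82 and RT112, and BLM in 253J and J82. ERCC1 rose in 253J and RT112 and fell in J82. Calls rest on the quasi-likelihood F test of edgeR, fitted on all 16 libraries, and a gene counts as lower or higher where its p, adjusted over all 21297 genes within a cell line, is under 0.05. In these bulk libraries, fewer cells transcribing a gene and less of its RNA per cell cannot be told apart.

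Of the 9 genes, 8 were lower in 253J, where 22.4% of all tested genes were lower. All 9 were lower in J82, against 18.5% of all genes. In RT112 7 were lower, against 20.2%, and in TCCSUP 5 were lower, against 22.1%. ERCC1 was the 1 gene that was higher in 253J and in RT112, where 28.8% and 27.4% of all genes were higher, and none of the 9 was higher in J82 or TCCSUP, where 24% and 32% were. Taken over the 9 genes, log2 fold changes had a median of -2.14 in 253J (0.10 over all tested genes), -1.0 in J82 (0.05), -0.74 in RT112 (0.12) and -0.45 in TCCSUP (0.20). Scaling by library size in place of TMM raised the median of all genes by 0.31 in TCCSUP, 0.27 in 253J and 0.15 in both J82 and RT112, and the share of called genes that were higher went from 56.2% to 68.5% in 253J and from 59.1% to 73.9% in TCCSUP. With that scaling 3 of the 9 genes, RAD54L, FANCD2 and FANCI, were called lower in TCCSUP.

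**Figure D1:**
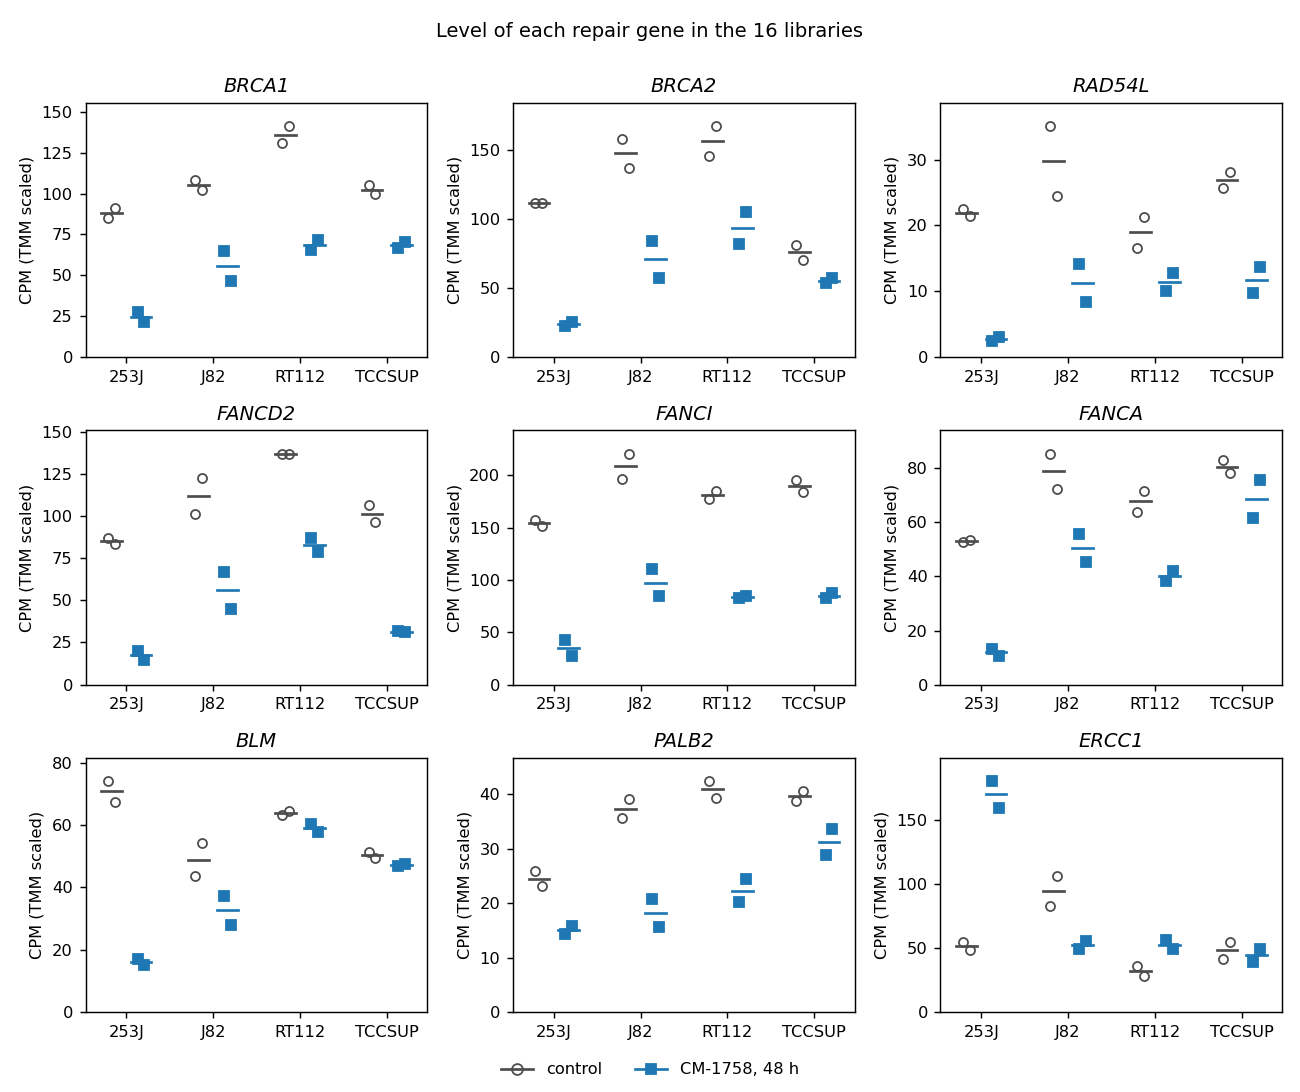
Level of each of the 9 repair genes in CPM, scaled by TMM, in the 16 libraries, by cell line on the horizontal axis. Open circles are control and filled squares CM-1758 libraries, and short lines are the means of 2 libraries. In 253J the treated libraries of RAD54L sit at 2.46 and 3.11 CPM under control libraries at 22.4 and 21.4, and ERCC1 is the only gene in which treated libraries lie above control, in 253J and RT112.

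With the study's stricter thresholds, an adjusted p under 0.01 and a log2 fold change below -2, 6 of the 9 genes were lower in 253J. These were BRCA2, RAD54L, FANCD2, FANCI, FANCA and BLM, and 3.5% of all tested genes passed the same thresholds there. BRCA1 stood just outside, at a log2 fold change of -1.87. In J82, RT112 and TCCSUP 0 of the 9 passed, against 1.24%, 1.39% and 3.31% of all genes. The 5 genes called lower in all 4 cell lines at an adjusted p under 0.05 were 55.6% of the 9, and 6.01% of all tested genes were lower in all 4. With library size scaling BRCA1 and BRCA2 were not called in TCCSUP, nor RAD54L in RT112, which leaves FANCD2 and FANCI. The call of BRCA2 in TCCSUP was lost under other settings too.

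BRCA1, a ubiquitin ligase with BARD1 that directs breaks towards recombination, had 85.3 and 91.5 CPM in the control libraries of 253J and 27.4 and 21.1 CPM after CM-1758. In J82 it was at 108 and 102 CPM in control and at 64.7 and 46.4 CPM in treated cells. RT112 had 131 and 141 CPM in control and 65.3 and 71.3 CPM with CM-1758. The treated libraries lay below the control libraries in all 4 lines, with TCCSUP going from 105 and 99.5 CPM to 66.6 and 70.1 CPM. The log2 fold change was -1.87 (SE 0.17, n = 2 per group, edgeR adjusted p = 4.23e-07) in 253J and -0.58 (SE 0.16, adjusted p = 0.00648) in TCCSUP. With library size scaling the latter was -0.27 and not called (adjusted p = 0.182). J82 and RT112 stood between them, at -0.92 (SE 0.16) and -0.99 (SE 0.16). In control cells BRCA1 was lowest in 253J and highest in RT112, 1.54-fold apart, and no neighbours in that order differed by the test. After CM-1758 253J was lower than each of the other 3 lines, by 2.29-fold to 2.82-fold (folds between lines are those of the fit), and those 3 were not called different from each other.

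BARD1, which stabilises BRCA1, also fell in 253J (log2 fold change -1.29, SE 0.15), J82 (-0.85, SE 0.15) and TCCSUP (-0.59, SE 0.15). In RT112 it was at 77.9 and 69.0 CPM in control and 71.4 and 86.3 CPM in treated libraries, which overlap, and its log2 fold change was 0.10 (SE 0.15, edgeR adjusted p = 0.609). BRCA1 fell there to 50.2% of control while BARD1 was not called. BRIP1, the helicase bound by BRCA1, fell in all 4 lines, from -2.17 in 253J to -0.65 in J82 on the log2 scale.

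PALB2 had the smallest reduction of the 8 genes lower in 253J. Its control libraries there held 25.9 and 23.1 CPM and its treated libraries 14.3 and 15.8 CPM. In J82 it was at 35.6 and 39.2 CPM in control and at 20.7 and 15.5 CPM with CM-1758. PALB2 thus had its largest log2 fold change, -1.04 (SE 0.16, edgeR adjusted p = 0.000105), in J82, with -0.71 (SE 0.16) in 253J and -0.88 (SE 0.16) in RT112. In TCCSUP the treated libraries, at 28.9 and 33.6 CPM, lay below the control libraries, at 38.7 and 40.6 CPM, and the change of -0.34 (SE 0.16, adjusted p = 0.0764) was not called. It was called lower with each line fitted alone in edgeR (adjusted p = 0.0175) and without J82 treated replicate 1 (adjusted p = 0.0421). PALB2 was the only 1 of the 9 for which the test of a difference between the 4 lines did not pass. That test did pass with library size scaling (adjusted p = 0.0219), with at least 10 counts required in every library (0.0392) and without J82 treated replicate 1 (0.0392). Its control level in 253J was below that of each other line, by 1.53-fold to 1.67-fold, and the other 3 were not called different from each other.

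BRCA2, which acts in filament assembly, went from 112 and 111 CPM in control to 22.1 and 25.4 CPM in treated 253J cells. J82 had 158 and 137 CPM in control and 84.1 and 57.1 CPM with CM-1758, and RT112 had 146 and 167 CPM and then 81.9 and 105 CPM. In TCCSUP the groups were closest, with 81.3 and 70.2 CPM in control and 53.2 and 57.3 CPM after treatment. Treated libraries were below control libraries in every line. BRCA2 in treated 253J cells was at 21.3% of control (log2 fold change -2.23, SE 0.19, edgeR adjusted p = 2.77e-07). The changes in J82 and RT112 were -1.06 (SE 0.18) and -0.74 (SE 0.18), and the latter was not called without RT112 treated replicate 1 (-0.58, adjusted p = 0.0505). In TCCSUP the change of -0.45 (SE 0.18, adjusted p = 0.0449) was near the threshold. The call was lost under 5 of the 9 other normalizations, filters and models tried. It was also lost whichever TCCSUP library, control library of 253J or control library of RT112 was left out. Control levels of BRCA2 ran from TCCSUP through 253J and J82 to RT112, 2.07-fold apart, where 253J and J82, and J82 and RT112, were not called different.

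RAD54L, the motor that drives strand exchange, had the largest reduction of the 9 in 253J. In control its libraries held 619 and 559 counts (22.4 and 21.4 CPM) and in treated cells 62 and 92 counts (2.46 and 3.11 CPM). It was 7.84-fold lower (log2 fold change -2.97, SE 0.29, edgeR adjusted p = 8.36e-07), and 1.26% of all tested genes had a lower log2 fold change in that line. In J82 it stood at 35.1 and 24.4 CPM in control and at 14.1 and 8.29 CPM in treated cells. TCCSUP had 25.6 and 28.1 CPM in control and 9.69 and 13.6 CPM with CM-1758. The groups did not overlap in these lines, and the log2 fold changes were -1.41 (SE 0.25) and -1.2 (SE 0.25). RT112 had 16.6 and 21.3 CPM in control and 10.1 and 12.8 CPM after treatment. That change was -0.72 (SE 0.25, adjusted p = 0.0286). It was no longer called without RT112 control replicate 2 (-0.54) or treated replicate 1 (-0.56). The call was also lost with library size scaling (-0.58), with at least 10 counts in every library (-0.60) and with DESeq2 in 1 model (-0.66). RAD54L overlaps LRRC41 on the other strand in the GENCODE v29 annotation, and how the authors' counting treated strand is not given in the sources used here. LRRC41 was itself lower in all 4 lines, with log2 fold changes from -1.99 in RT112 to -1.04 in J82. Control levels of RAD54L differed in 1 pair of lines, J82 being 1.57-fold above RT112, and after CM-1758 253J was 4.0-fold to 4.17-fold below each other line by the fit.

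RAD51AP1, which stimulates strand exchange, fell in all 4 lines, between -2.23 in 253J and -0.98 in RT112. The largest reduction of the strand exchange list in 253J was of XRCC2, which acts in strand exchange, from 81.6 to 12.1 CPM (log2 fold change -2.75, SE 0.17), and it fell in the other 3 lines too. SFR1, a cofactor of strand exchange, went the other way and rose in all 4 lines, most in TCCSUP, from 8.54 to 44.1 CPM (log2 fold change 2.37, SE 0.19).

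FANCD2 and FANCI, which are ubiquitinated together at stalled forks, fell in every line. FANCD2 had 87.0 and 83.5 CPM in control and 19.96 and 14.8 CPM in treated 253J cells. J82 went from 101 and 122 CPM to 66.8 and 44.9 CPM, and RT112 from 137 and 137 CPM to 86.7 and 78.6 CPM. In TCCSUP the treated libraries, at 31.6 and 31.2 CPM, were far below the control libraries, at 106 and 96.4 CPM. No treated library reached the lowest control library of its line. The log2 fold change of FANCD2 was -2.30 (SE 0.19, edgeR adjusted p = 2.31e-07) in 253J, -1.69 (SE 0.18, adjusted p = 3.06e-06) in TCCSUP, -1.0 (SE 0.18) in J82 and -0.73 (SE 0.18) in RT112. Among the 5 genes lower in both lines, it was the only 1 with a larger reduction in TCCSUP than in RT112 by the test of that difference, 0.96 (SE 0.25) on the log2 scale. Control levels of FANCD2 differed in 1 of the 6 pairs of lines, 253J being 1.60-fold below RT112, whereas treated levels differed in all 6.

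FANCI had the most similar changes outside 253J. Its treated libraries ran from 82.3 to 110 CPM in J82, RT112 and TCCSUP, under control libraries between 178 and 221 CPM, and the log2 fold changes of -1.10, -1.12 and -1.16 (SE 0.18 each) differed between these lines by at most 0.06 (SE 0.25). In 253J it went from 157 and 152 CPM to 42.3 and 27.7 CPM, a change of -2.14 (SE 0.18, edgeR adjusted p = 2.90e-07). FANCI overlaps POLG, the mitochondrial DNA polymerase gene, on the other strand, and POLG was lower in 253J (-0.67), J82 (-1.06) and RT112 (-0.84) and was not called in TCCSUP (-0.18). Per kilobase of the longest annotated transcript in GENCODE v29, FANCI had the highest control level of the 9 in each line, between 32.6 CPM per kilobase in 253J and 44 in J82. The lowest control levels per kilobase were those of PALB2 in 253J (6.12), BLM in J82 (9.28), RAD54L in RT112 (6.08) and BRCA2 in TCCSUP (6.32).

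FANCA, the core complex subunit most often mutated in Fanconi anaemia, was at 52.6 and 53.4 CPM in control and 13.2 and 10.6 CPM in treated 253J libraries. The log2 fold change there was -2.15 (SE 0.17, edgeR adjusted p = 1.24e-07), against -0.64 (SE 0.16) in J82 and -0.76 (SE 0.16) in RT112. TCCSUP had 83.2 and 78.1 CPM in control and 61.7 and 75.8 CPM after CM-1758, and the change of -0.23 (SE 0.15, adjusted p = 0.222) was not called. FANCA overlaps ZNF276 on the other strand, which was lower in J82 (-0.64) and not called in the other 3 lines. The treated level of FANCA was 5.77-fold higher in TCCSUP than in 253J by the fit, while the control levels of these lines were 1.52-fold apart.

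**Figure D2:**
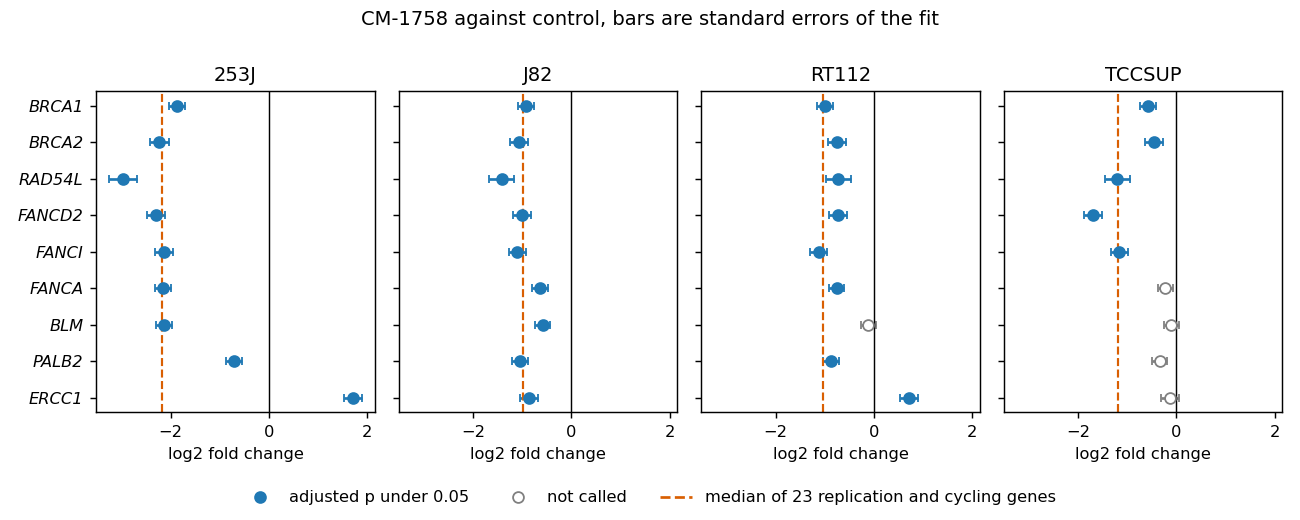
Log2 fold change of CM-1758 against control for each of the 9 repair genes, 1 panel per cell line, with standard errors of the edgeR fit as bars. Filled points passed an adjusted p of 0.05, and the dashed line is the median of 23 replication and cycling genes, -2.17 in 253J. In TCCSUP, FANCA, BLM, PALB2 and ERCC1 were not called, between -0.34 and -0.10, while FANCD2 is at -1.69.

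BLM, the helicase mutated in Bloom syndrome, separated 253J from the other lines. In 253J it went from 74.0 and 67.5 CPM in control to 17.2 and 15.1 CPM with CM-1758. In RT112 it was at 63.1 and 64.6 CPM in control and 60.2 and 57.8 CPM in treated cells, and in TCCSUP at 51.4 and 49.5 CPM and then 46.8 and 47.3 CPM. The treated libraries of these 2 lines were slightly below their control libraries, and the log2 fold changes of -0.11 (SE 0.15, edgeR adjusted p = 0.566) and -0.10 (SE 0.15, adjusted p = 0.599) were not called. Their signs turned with library size scaling and with a filter of at least 10 counts in every library. In J82 BLM went from 43.5 and 54.1 CPM to 37.4 and 27.8 CPM, a change of -0.58 (SE 0.15, adjusted p = 0.00596) that was not called without J82 control replicate 3 or treated replicate 3 (adjusted p = 0.0692 and 0.0898). The change in 253J, -2.13 (SE 0.16), was larger than that in each other line, with differences between -1.55 and -2.03 on the log2 scale (SE 0.22 each). BLM was also the only 1 of the 9 whose mean control level was highest in 253J, where it was 1.45-fold above J82 and 1.40-fold above TCCSUP. Against RT112 it was 1.11-fold higher and not called different (edgeR adjusted p = 0.441).

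The partners of BLM followed it in part. RMI1 and RMI2, which form the dissolving complex with BLM, fell in 253J (-0.82, SE 0.22, and -1.44, SE 0.29) and were not called in the other 3 lines. TOP3A, the topoisomerase of that complex, was lower in J82 (-0.69, SE 0.14) and RT112 (-0.78, SE 0.14) and was not called in 253J (-0.15, SE 0.14), where BLM fell most. EME1, the partner of the nuclease MUS81, went from 34.7 to 4.61 CPM in 253J, a log2 fold change of -2.92 (SE 0.22), and fell in J82 (-0.82, SE 0.20) and TCCSUP (-0.76, SE 0.21).

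ERCC1 was the only 1 of the 9 that rose. In 253J it had 55.0 and 48.3 CPM in control and 180 and 159 CPM with CM-1758. In RT112 it was at 35.8 and 28.5 CPM in control and 56.1 and 49.3 CPM in treated cells. In J82 it went down, from 82.7 and 106 CPM to 49.0 and 55.3 CPM. The groups were apart in these 3 lines, whereas in TCCSUP the control libraries, at 41.7 and 54.7 CPM, overlapped with the treated libraries, at 38.9 and 49.4 CPM. ERCC1 was 3.28-fold higher in 253J (log2 fold change 1.71, SE 0.18, edgeR adjusted p = 2.38e-06). It was 1.64-fold higher in RT112 (0.71, SE 0.18, adjusted p = 0.00501), a call that was lost without RT112 control replicate 2 (0.56, adjusted p = 0.0715). The change was -0.85 (SE 0.18, adjusted p = 0.0015) in J82 and -0.13 (SE 0.18, adjusted p = 0.588) in TCCSUP. Before treatment ERCC1 was highest in J82 and lowest in RT112, 2.93-fold apart, and 5 of the 6 pairs of lines differed. After treatment the order had 253J at the top, 3.22-fold to 3.84-fold above each other line, and the other 3 were not called different from each other.

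Its catalytic partner ERCC4 did not share this pattern. ERCC4 rose in RT112, from 24.2 and 28.5 CPM to 37.2 and 38.4 CPM (0.52, SE 0.14, edgeR adjusted p = 0.00655), and its log2 fold changes in 253J, J82 and TCCSUP, between 0.09 and 0.25, were not called. The interaction test of a difference between the lines did not pass for ERCC4 (edgeR adjusted p = 0.267). In the annotation ERCC1 overlaps CD3EAP and FOSB, both on the other strand. CD3EAP, an RNA polymerase subunit gene, was lower in 253J (-0.62), J82 (-0.65) and RT112 (-1.05) and higher in TCCSUP (0.95). FOSB, an inducible transcription factor gene, had 28 and 36 counts in vehicle control 253J libraries, with 319 and 259 counts in treated ones, where ERCC1 had 1519 and 1262 counts and then 4545 and 4721 counts. In RT112 FOSB had 19 and 29 counts and then 106 and 312 counts. In J82 control held 54 and 261 counts and treated cells 70 and 50, which overlap. TCCSUP had 0 counts of FOSB in both control libraries and 22 and 17 counts after treatment, and FOSB was called higher there (edgeR adjusted p = 0.00577) while ERCC1 was not called. FOSB thus moved in the direction of ERCC1 in 253J and RT112 but not in TCCSUP. In J82 the log2 fold change of FOSB, -1.46, had the sign of that of ERCC1 but was not called. FOSB had far lower counts than ERCC1 in each line, and the part of shared reads was not tested.

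**Figure D3:**
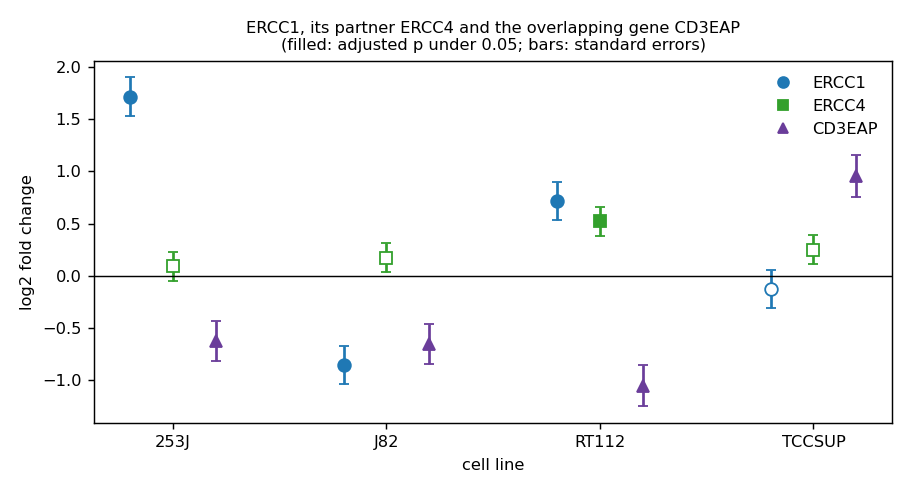
Log2 fold change of CM-1758 against control for ERCC1, its nuclease partner ERCC4 and CD3EAP, a gene on the other strand that overlaps ERCC1, in the 4 cell lines, with standard errors as bars. Filled symbols passed an adjusted p of 0.05. ERCC1 is above 0 in 253J and RT112 and below 0 in J82, where CD3EAP is below 0 in all 3 of these lines.

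Whether the response differed between the cell lines was tested with the interaction of treatment and line, an F test over 3 contrasts in the same fit. The effect differed for 8 of the 9 genes, all except PALB2 (adjusted p = 0.0702), where it differed for 51.9% of all tested genes. The pairs that included 253J held most of the differences. Against J82, the effect in 253J differed for 8 of the 9 genes, against 30% of all genes. Against RT112 it differed for 8, beside 30% of all genes, and against TCCSUP for 7, beside 28.6%. Among the other lines the effect differed for 1 gene between J82 and RT112 (ERCC1, 22.2% of all genes), for 1 between J82 and TCCSUP (PALB2, 22.2%) and for 2 between RT112 and TCCSUP (FANCD2 and ERCC1, 27.5%).

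Control levels of the 9 genes were compared between the 4 lines in 54 combinations of gene and pair of lines. They differed in 22 of the 54, where 52% of such combinations differed over all tested genes. After CM-1758 the levels differed in 36 of the 54, where 54.1% did over all genes. The treated level in 253J was the lowest of the 4 lines for 8 of the 9 genes and the highest for ERCC1. These counts come from the same libraries and from genes that share the fit, and they describe the 9 genes without a test of their own.

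The 2 treated J82 libraries differed in 1 direction. Replicate 1 was above replicate 3 for 8 of the 9 genes, by 1.23-fold for FANCA to 1.70-fold for RAD54L, and below it for ERCC1, by 1.13-fold. The summed level of the 23 replication and cycling genes was 3475 CPM in replicate 1 and 3128 CPM in replicate 3. Leaving out J82 treated replicate 3 gave FANCA a log2 fold change of -0.50 in J82 with an adjusted p of 0.0507 in the edgeR test, and 7 of the 9 genes stayed called lower there.

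The other genes of the recombination and Fanconi pathways were described with 4 lists written from general knowledge that leave out the 9, 64 genes in all. In 253J 38 of the 64 were lower and 12 higher (median log2 fold change -0.64). In J82 22 were lower and 8 higher (median -0.29), in RT112 26 and 4 (median -0.32), and in TCCSUP 23 and 13 (median -0.17). The shares of lower genes, 59.4%, 34.4%, 40.6% and 35.9%, stood beside 22.4%, 18.5%, 20.2% and 22.1% of all tested genes, and 28.8%, 24%, 27.4% and 32% of all tested genes were higher. The 9 genes therefore had lower medians than the rest of their pathways in each line, with no test of that difference. Both the 9 genes and the lists were chosen with earlier results of these data known, and the part of that choice in the difference was not tested. With library size scaling, higher genes outnumbered lower ones in TCCSUP in the lists of strand exchange (7 higher), BRCA1 complexes (6) and helicases (5).

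The Fanconi core and loading list, 18 genes, had 12 lower and 3 higher in 253J, 7 and 5 in TCCSUP, 4 and 1 in J82, and 7 and 1 in RT112. The share of lower genes in J82, 22.2%, was near the 18.5% of all genes, and that of higher genes in TCCSUP, 27.8%, near 32%. Shares of higher genes in the other lines, 5.56% to 16.7%, were under those of all genes. In TCCSUP 4 were lower without treated replicate 2, and 2 were higher without control replicate 2 and 3 without any other library of that line. The 1 higher gene of J82 was lost without any 1 of 14 libraries, all except J82 control replicate 3 and treated replicate 1 (3 higher without the latter), and that of RT112 without either library of replicate 1, while 2 were higher in RT112 without J82 treated replicate 1. FANCG, a core subunit next to FANCA, had its list's largest reduction in 253J, from 63.8 to 17.5 CPM (log2 fold change -1.87, SE 0.13), and in RT112 (-1.30, SE 0.13). FAAP24, a DNA-binding subunit, had it in J82 (-2.52, SE 0.37) and TCCSUP (-1.57, SE 0.38) and fell in 253J too (-1.36, SE 0.36). FANCL, the catalytic ligase of the complex, fell in 253J (-0.93, SE 0.16) and RT112 (-0.98, SE 0.16) and was higher in TCCSUP (0.45, SE 0.16) and J82 (0.41, SE 0.16, edgeR adjusted p = 0.046), where it was the 1 higher gene whose call was lost without any 1 of 14 libraries. UBE2T, which supplies its ubiquitin, and USP1, which removes it from FANCD2, fell in 253J (-0.65 and -0.92) and were not called in the other lines. USP1 was at -0.37 in J82 and -0.33 in both RT112 and TCCSUP. The interaction test of a difference between the lines did not pass for UBE2T or USP1 (edgeR adjusted p = 0.0642 and 0.0862). SLX4, the scaffold that holds ERCC1 and ERCC4, rose in 253J (1.2, SE 0.20) and RT112 (0.66, SE 0.20, a call lost without either RT112 library of replicate 1), where ERCC1 rose too, and in TCCSUP (0.55), where ERCC1 was not called. FAAP100 and RFWD3 were the genes of this list lower in all 4 lines.

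Of the 18 genes of strand exchange and its mediators, 10 were lower and 5 higher in 253J, 5 and 4 in TCCSUP, 7 and 3 in J82, and 10 and 2 in RT112. The share of lower genes in TCCSUP, 27.8%, was near the 22.1% of all genes, as was that of higher genes in 253J, 27.8% against 28.8%. Without RT112 treated replicate 2, 6 were lower in RT112. Higher genes numbered 3 in 253J without control replicate 2 or treated replicate 3, and 2 in TCCSUP without control replicate 1. MCM9, a helicase of recombination, fell in all 4 lines and had the largest reduction of this list in J82 (-1.76, SE 0.23) and RT112 (-1.63, SE 0.23). RAD51B, which acts with XRCC2, had the largest rise of this list in J82 (1.15, SE 0.15) and was also higher in 253J (0.50, SE 0.15) and TCCSUP (0.80, SE 0.14). The 16 genes of BRCA1 complexes and end resection had 9 lower and 3 higher in 253J, 8 and 3 in TCCSUP, 6 and 3 in J82, and 6 and 1 in RT112, with 37.5% to 56.2% lower (18.5% to 22.4% of all genes) and 6.25% to 18.8% higher (24% to 32% of all genes). Lower genes numbered 3 in J82 without control replicate 3 and 5 in TCCSUP without either treated library. Higher genes numbered 1 in 253J without control replicate 3 or treated replicate 1, 1 in J82 without control replicate 1, 1 in TCCSUP without treated replicate 1, and 0 in RT112 without either library of replicate 1. BRIP1, RBBP8, NBN and DNA2, of which the last 3 act in end resection, were lower in all 4 lines, and NBN, of the MRE11 complex, went from 194 to 88.1 CPM in J82 (-1.14, SE 0.16). RPA3, a subunit of the protein that coats single-stranded DNA, rose in TCCSUP (0.76, SE 0.19) and J82 (0.49, SE 0.18). The BRCA1-A complex gene ABRAXAS1 rose in 253J (0.73, SE 0.17) and J82 (0.66, SE 0.18), and BABAM2, of the same complex, in 253J (0.53, SE 0.17), J82 (0.66, SE 0.18) and RT112 (0.54, SE 0.18).

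Among the 12 helicases and resolution genes, 7 were lower and 1 higher in 253J, 3 and 1 in TCCSUP, 5 and 1 in J82, and 3 and 0 in RT112. The share of lower genes was 25% in both TCCSUP and RT112, near the 22.1% and 20.2% of all genes. In TCCSUP 1 was lower without either library of replicate 1, and 0 were higher without control replicate 2 or treated replicate 1. In J82 0 were higher without control replicate 1 or treated replicate 3, and 2 without treated replicate 1. GEN1, a resolvase, was the only gene of this list lower in all 4 lines, with a log2 fold change of -1.40 (SE 0.18) in TCCSUP. FBH1, a helicase that limits recombination, rose in 253J from 45.6 to 110 CPM (1.27, SE 0.13) and in TCCSUP (0.46, SE 0.13), and RECQL rose in J82 (0.51, SE 0.17) and fell in 253J (-0.50, SE 0.17).

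**Figure D4:**
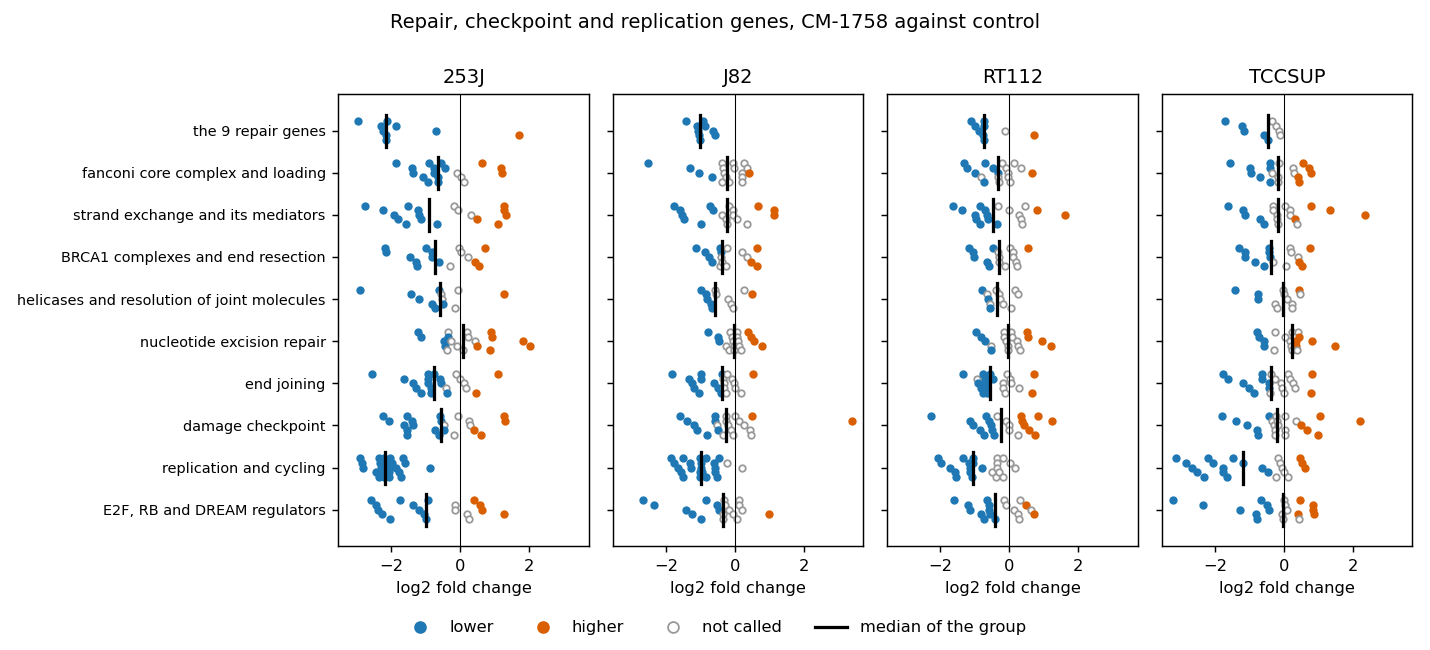
Log2 fold change of CM-1758 against control for each gene of the 9 repair genes and of 9 lists of other repair, checkpoint and replication genes, 1 panel per cell line. Blue points were lower and orange points higher at an adjusted p under 0.05, open points were not called, and the black bar is the median of the group. The 9 repair genes have medians of -2.14, -1.0, -0.74 and -0.45, while nucleotide excision repair genes centre near 0 in every line.

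Lists outside recombination served for comparison. The 19 nucleotide excision repair genes, the pathway that also uses ERCC1, had 5 lower and 6 higher genes in 253J, 4 and 5 in TCCSUP, 3 and 4 in J82, and 4 and 4 in RT112, and their medians lay between -0.04 and 0.23. Their shares of lower genes, 15.8% to 26.3%, and of higher genes, 21.1% to 31.6%, were near those of all genes. The higher genes in TCCSUP were 12 with library size scaling, 11 with at least 10 counts required in every library and 8 with the replicate number as a block. CETN2, which recognises lesions with XPC, rose in 253J from 34.3 to 140 CPM (2.02, SE 0.22) and in J82 (0.80, SE 0.21), and the nuclease gene ERCC5 fell in 253J (-1.22, SE 0.13) and RT112 (-0.71, SE 0.13). UVSSA had the largest rise of the list in RT112 (1.21, SE 0.21) and TCCSUP (1.48, SE 0.23), and it rose in 253J as well (1.83, SE 0.22). ERCC2, a helicase of TFIIH, had the largest reduction of the list in J82 (-0.76, SE 0.14) and TCCSUP (-0.76, SE 0.15) and was higher in 253J (0.87, SE 0.15) and RT112 (0.94, SE 0.15). Without J82 control replicate 1 or treated replicate 3, 1 gene of the list was higher in J82, and without J82 treated replicate 1 or 3, 1 was lower. In 253J 2 were lower without control replicate 2 and 3 without either treated library. In TCCSUP 2 were higher without control replicate 1 or 2 or treated replicate 1, 3 were higher without RT112 control replicate 1 or 2, and 2 were lower without TCCSUP control replicate 2 or treated replicate 2.

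Of 21 end joining genes, 14 were lower and 2 higher in 253J, 9 and 2 in TCCSUP, 11 and 1 in J82, and 11 and 2 in RT112, with 42.9% to 66.7% lower (18.5% to 22.4% of all genes) and 4.76% to 9.52% higher (24% to 32% of all genes). POLQ, the polymerase of microhomology-mediated joining, went from 114 to 19.5 CPM in 253J (-2.55, SE 0.16), and LIG4, the ligase of the classical route, rose there (1.09, SE 0.16), in TCCSUP (0.80, SE 0.16) and in RT112 (0.73, SE 0.16). POLQ also fell in J82 (-1.17, SE 0.15) and TCCSUP (-1.63, SE 0.15). With library size scaling 5 end joining genes were lower and 7 higher in TCCSUP. Without J82 treated replicate 1 or 3, 7 end joining genes were lower in J82, and without TCCSUP treated replicate 2, 5 were lower in TCCSUP. The counts of higher genes went to 1 in 253J without control replicate 2 or treated replicate 1, and in J82 to 0 without control replicate 1 or treated replicate 3 and to 2 without control replicate 3. The 22 damage checkpoint genes had 13 lower and 4 higher in 253J, 6 and 5 in TCCSUP, 8 and 2 in J82, and 10 and 7 in RT112. The share of lower genes in TCCSUP, 27.3%, was near the 22.1% of all genes, and that of higher genes in RT112, 31.8%, near 27.4%. In RT112 the lower genes were 6 without control replicate 1 or treated replicate 2, and the higher genes 4 without control replicate 1 or 2 and 3 without treated replicate 2. Higher genes numbered 5 in J82 without treated replicate 1, 1 without treated replicate 3, and 2 in 253J without treated replicate 3. CDKN1A, the inhibitor of cyclin-dependent kinases known as p21, rose in 253J (1.29, SE 0.25), J82 (3.41, SE 0.27) and TCCSUP (2.21, SE 0.26) and was not called in RT112 (0.26, SE 0.24, edgeR adjusted p = 0.411).

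Replication and cycling genes were lower in most comparisons as well. All 23 were lower in 253J (median log2 fold change -2.17), 21 were lower in J82 (-0.99), and 13 in RT112 (-1.04). TCCSUP had 14 lower (-1.19) and 3 higher, and the latter became 0 without TCCSUP control replicate 1 and 1 without any other library of that line. Over all tested genes 22.4%, 18.5%, 20.2% and 22.1% were lower in 253J, J82, RT112 and TCCSUP, and 32% were higher in TCCSUP against 13% of the list. Summed over the list, the level went from 5002 and 4081 CPM to 1193 and 898 CPM in 253J, and from 3804 and 4028 CPM to 1953 and 2014 CPM in TCCSUP. TOP2A was the most abundant gene of the list in the control libraries of 253J, RT112 and TCCSUP and MCM2 in those of J82. In 253J BRCA2, FANCD2, FANCI, FANCA and BLM stood between -0.13 and 0.03 from the list's median log2 fold change, while RAD54L was at -0.80, BRCA1 at 0.30, PALB2 at 1.46 and ERCC1 at 3.88 from it. In J82 and RT112 the 8 genes other than ERCC1 lay between -0.43 (RAD54L in J82) and 0.92 (BLM in RT112) from the median. In TCCSUP the median of the list was -1.19, and BRCA1, BRCA2, FANCA, BLM, PALB2 and ERCC1 were 0.60 to 1.09 above it, RAD54L and FANCI at -0.02 and 0.03 from it, and FANCD2 at -0.50. The part of cycling cells in the change of the 9 genes was not tested.

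MKI67, a marker of cycling cells, fell in 253J (-2.84, SE 0.39), J82 (-1.84, SE 0.38) and TCCSUP (-2.33, SE 0.38), and in RT112 its level of 341 CPM in control and 300.4 CPM in treated cells gave -0.18 (SE 0.36, edgeR adjusted p = 0.730). MCM2, a replicative helicase subunit, fell in 253J (-1.73), J82 (-0.60) and RT112 (-1.72) and was higher in TCCSUP (0.54, SE 0.17), as was CDC6 (0.62, SE 0.21), both calls being lost without TCCSUP control replicate 1 and at least 1 of them without any other library of that line. PCNA, the sliding clamp, fell in 253J, J82 and RT112 and was not called in TCCSUP (-0.16, SE 0.18).

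Of the 19 genes of E2F, RB and DREAM regulators, 11 were lower and 4 higher in 253J, 8 and 5 in TCCSUP, 8 and 1 in J82, and 10 and 2 in RT112. The shares of lower genes, 42.1% to 57.9%, were above those of all genes. The shares of higher genes in J82 and RT112, 5.26% and 10.5%, were under the 24% and 27.4% of all genes. In TCCSUP and 253J they were 26.3% and 21.1%, near the 32% and 28.8% of all genes. In RT112 the lower genes were 4 without control replicate 2 and 6 without treated replicate 2, and the higher genes 0 without control replicate 2 and 1 without any other library of that line. Higher genes numbered 2 in 253J without control replicate 3, without either treated library, or without RT112 control replicate 2 or a treated library of RT112 or TCCSUP, and 3 in TCCSUP without control replicate 1 or treated replicate 2. E2F1 fell in 253J (-2.38, SE 0.21), J82 (-0.99, SE 0.20) and RT112 (-1.60, SE 0.20) and was at 55.4 CPM in control and 57.0 CPM in treated TCCSUP cells (0.04, SE 0.20, edgeR adjusted p = 0.895). RB1 was not called in any line, with log2 fold changes between 0.01 and 0.21. FOXM1 and MYBL2, which drive the later genes of the cycle, were lower in all 4 lines, with FOXM1 at -3.21 (SE 0.32) in TCCSUP and MYBL2 at -2.66 (SE 0.27) in J82. TFDP1, the partner of E2F proteins, and the DREAM subunits LIN9 and RBL1 were lower in all 4 lines, LIN9 between -1.74 in 253J and -0.64 in RT112. LIN37, another DREAM subunit, rose in 253J (1.26), RT112 (0.71) and TCCSUP (0.86).

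Over the 16 libraries, the genes whose log2 CPM was most like that of a repair gene were named without a test, since all points share the same libraries, scaling and treatment. FANCD2 was most like BUB1B (Pearson r = 0.986, 16 libraries) and NCAPG (0.984), a spindle checkpoint kinase and a condensin subunit. FANCI was most like RAD51AP1 (0.983) and CENPK (0.976), BRCA1 like RBM14 and CDC45 (0.966 each), and BRCA2 like KIF24 (0.961) and TTF2 (0.956). RAD54L was most like LARP1 (0.957) and FANCI (0.949), FANCA like TEDC2 (0.971) and ZNF519 (0.965), BLM like IGF2BP3 (0.949), and PALB2 like PGBD2 (0.955) and LOC152048 (0.947). ERCC1 had CKS2 (0.932) and SNAPC2 (0.917) as its closest genes. Among the 8 genes other than ERCC1 the correlations ran from 0.677 for BLM and PALB2 to 0.949 for BRCA1 and FANCI, and those of ERCC1 with the other 8 from -0.752 with BLM to -0.526 with PALB2. These values hold the differences between the lines. With each library set against the mean of its line, the former ran from 0.637 for BLM and PALB2 to 0.982 for BRCA1 and FANCI, and the latter from -0.722 with FANCA to -0.251 with PALB2.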

How the data were processed

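The data are 1 table of read counts for 16 RNA-seq libraries, 2 per cell line and treatment, described in the study's methods as independent biological replicates. A stranded kit with ribosomal RNA depletion was used on total RNA. The authors deposited raw counts, whole numbers of reads per gene symbol without normalization. The submitters' processing notes name HISAT2, StringTie and GRCh37. Versions, the counting tool, its strand setting and the annotation are not given in the sources used here.

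The filter of edgeR 4.0.16 (filterByExpr, R 4.3.3) kept 21297 of 35993 genes. After TMM scaling, 1 quasi-likelihood model of the 8 group means was fitted, with 8 residual degrees of freedom and no replicate block. The common biological coefficient of variation was 0.153. P-values were adjusted by Benjamini-Hochberg over all tested genes within a contrast. The SE of a log2 fold change is its size over the square root of its F statistic. CPM and log2 CPM (prior count 2) use TMM-scaled library sizes, and SDs over 2 libraries were not used for tests. Alternatives, DESeq2 1.42.0 among them, are given with the limits at the end. Control libraries held 27655401 to 32537104 counts and treated ones 22506431 to 31547585. No 2 libraries of a group agreed within sampling noise (chi-square of 12.6 or more per degree of freedom).

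The 9 genes and the gene lists were chosen with earlier results of these data known. Named beside the 9 were their direct partners, the called gene with the lowest and the highest log2 fold change of each list and line, the 2 genes of mean log2 CPM above 0 most correlated with each of the 9, genes called in all 4 lines, 7 context genes, and genes that overlap the 9 in GENCODE v29. Some genes that this rule names are not reported here. Promoter sequences were RefSeq's, GRCh38.p14, matched by symbol, and coordinates refer to that build only.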

Additional observations from a re-analysis of the deposited data

Results flagged for a closer look

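The effect of CM-1758 differed between the 4 cell lines for 8 of the 9 genes by the interaction test of the edgeR fit (3 contrasts, 2 libraries per group), adjusted over all tested genes, of which 51.9% passed. The adjusted p was 6.53e-06 for BLM, whose log2 fold change ran from -2.13 in 253J to -0.10 in TCCSUP. It was 8.75e-06 for ERCC1, which rose by 1.71 in 253J and fell by 0.85 in J82. It was 3.55e-05 for FANCA, from -2.15 in 253J to -0.23 in TCCSUP. BRCA2 had 0.000231, from -2.23 in 253J to -0.45 in TCCSUP. FANCD2 had 0.000515, from -2.30 in 253J to -0.73 in RT112. RAD54L had 0.00103, from -2.97 in 253J to -0.72 in RT112. BRCA1 had 0.00162, from -1.87 in 253J to -0.58 in TCCSUP, and FANCI 0.00555, from -2.14 in 253J to -1.10 in J82. Cell line, dose and, for TCCSUP, culture medium cannot be told apart in these differences.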

How the results depend on the processing

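With the study's thresholds (adjusted p under 0.01 and a log2 fold change beyond 2), 0 of the 9 genes were lower in J82, RT112 and TCCSUP, and 0 were higher in 253J and RT112. Library size alone left 3 lower in TCCSUP. Other normalizations, filters and models gave 4 to 6 lower genes in TCCSUP and under some of them lost the calls of BRCA2 in TCCSUP, RAD54L in RT112 and BLM in J82 (the last with each line fitted alone, adjusted p = 0.0804 by edgeR and 0.115 by DESeq2), and the effect differed between lines for 8 or 9 genes. For the interaction test, all alternatives other than library size and the DESeq2 likelihood ratio test were chosen after seeing the data, as were most of those for levels between lines. With 1 library left out at a time (an arm of 1 library was assumed to vary like the other groups), 8 genes stayed lower in 253J, 7 to 9 in J82, 5 to 7 in RT112 and 4 to 6 in TCCSUP, and 1 was higher in 253J and 0 to 1 in RT112. Changes near 0 turned in sign. With library size alone BLM went to 0.0332 in RT112 and 0.211 in TCCSUP, FANCA to 0.082 and ERCC1 to 0.187 in TCCSUP. With at least 10 counts in every library BLM went to 0.0139 in RT112 and 0.0507 in TCCSUP, and ERCC1 to 0.0278 in TCCSUP. In TCCSUP, ERCC1 ran from -0.314 without control replicate 1 to 0.0786 without control replicate 2. The cause was not tested.

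Over all genes, counts moved by over 1.5 times with the study's thresholds (746 lower and 2009 higher in 253J, 265 and 1876 in J82, 295 and 2429 in RT112, 704 and 3028 in TCCSUP, against 4781 and 6134, 3933 and 5111, 4307 and 5843, and 4710 and 6808). They also moved with library size alone (3137 lower in TCCSUP), with at least 10 counts in every library, where fewer genes were tested (3897 higher in 253J, 3209 in J82, 3324 in RT112, 3729 in TCCSUP), and in J82 fitted alone (2504 lower by edgeR, 2356 lower and 3357 higher by DESeq2). As a replicate block, the shared replicate numbers of J82, RT112 and TCCSUP left 9, 7 and 5 genes lower. Same-numbered libraries deviated together with correlations of 0.218, 0.0427 and 0.0173, so the numbers were not taken as pairs, and 253J shares only 1 number.

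The counts of the 9 gene lists moved by over 1.5 times in 174 of 792 combinations of list, line, direction and setting other than leaving out a library. With library size alone, higher genes in TCCSUP went from 2 to 7 for end joining, 1 to 5 for helicases, 5 to 12 for excision repair, 3 to 6 for BRCA1 complexes and 4 to 7 for strand exchange, and in J82 from 1 to 4 for the Fanconi list. Lower genes in TCCSUP went from 9 to 5, 3 to 1, 4 to 2, 8 to 4 and 5 to 3 in the same order. With at least 10 counts in every library, higher excision repair genes in TCCSUP were 11, and with the replicate block 8. With J82 fitted alone in edgeR, lower genes went from 11 to 7 for end joining, 8 to 5 for damage checkpoint and 6 to 3 for BRCA1 complexes. Higher strand exchange genes in RT112 went from 2 to 4 or 5 with RLE scaling, library size alone, at least 10 counts, each line fitted alone in edgeR or DESeq2 in 1 model. Replication genes higher in TCCSUP went from 3 to 0 at an adjusted p under 0.01.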
